A study of Mus musculus with 3 samples.

Results

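Potassium channel genes were compared between the metanephros at 11.5 days post coitum (dpc) and the fetal kidney at 13.5 dpc in CD1 mice. Genes were taken by symbol from the array's platform annotation: any feature with a single gene symbol made of Kcn, a family letter or letters and a number, with Kcnj8 left out by the rule. The rule took 64 symbols on 72 features. Of these, 58 had a value on all 3 arrays and are described here, among 19015 rows of the whole table (14433 named genes and 4582 unnamed features). Kcnab3, Kcnc1, Kcnd3, Kcnj4, Kcnmb1 and Kcnv1 had no value on array 1 and were not tested. On arrays 2 and 3, the voltage-gated Kcnc1 had -0.56 and -0.65, the silent modifier Kcnv1 had 0.50 and 0.27, the inward rectifier Kcnj4 had 0.12 and -0.64, and the beta subunit Kcnab3 had -0.29 and -0.22. Classes were set by gene symbol. By class, 10 inward rectifiers, 19 voltage-gated subunits, 8 two-pore channels, 6 calcium- or sodium-activated subunits, 13 accessory subunits and 2 noncoding transcripts were measured.

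Both ages were microdissected, with both sexes pooled, and their amplified RNA was hybridised together on each of 3 two-channel oligonucleotide arrays. No label gives a mutation or a treatment. The dyes were ordered red/green on arrays 1 and 2, and green/red on array 3. A positive log2 ratio is read as a higher level at 11.5 dpc. This direction is likely, because the labels put 11.5 dpc first and in channel 1, but it is not settled, and every direction given here turns if it is wrong. The labels do not tell whether separate RNA extracts went onto the arrays, so the p-values rest on a spread between arrays that may be technical alone. A ratio does not show whether a gene is expressed at all, so neither the presence of each channel nor that of kidney markers could be checked. Of 12 metanephric marker genes, 11 were measured, with a median log2 ratio of -0.17 (means from -0.64 to 0.72; 2 positive and 5 negative on all arrays). In whole organs, fewer cells of a type and less RNA per cell cannot be told apart.

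Potassium channels let potassium leave the cell and so set the resting membrane voltage. Voltage-gated channels open when the membrane depolarises, inward rectifiers and two-pore channels hold it at rest, and calcium-activated channels open when calcium rises inside the cell. Accessory subunits do not form a pore, but change how a pore subunit opens or reaches the membrane. In the mature kidney these channels recycle potassium for the sodium pump, secrete potassium into urine and set vascular tone.

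The potassium channel genes spread to both sides of 0. Their median log2 ratio was -0.034, against -0.0084 over all rows, and 28 means were positive and 30 negative. None of the 58 passed limma's Benjamini-Hochberg adjusted p of 0.05 (0% of all rows did; smallest adjusted p among the channel genes 0.359), and 6 were at an unadjusted limma p under 0.05, or 10.3%, against 9.24% of all rows. The 6 were Kcnmb4, Kcna7, Kcnk2 and Kcnj9, higher at 11.5 dpc, and Kcnk1 and Kcnk10, lower. The 4 higher made up 6.90% of the channel genes against 4.17% of all rows, and the 2 lower made up 3.45% against 5.07%. One sign on all 3 arrays was found for 21 channel genes (36.2%, against 35.3% of all rows), 7 positive (12.1%, against 16.8% of all rows) and 14 negative (24.1%, against 18.5% of all rows). None was at least 2-fold on every array (0.684% of all rows, 0.247% higher and 0.436% lower). These shares lie near those of all rows and are no result about the channel genes. Arrays more than 2 log2 units apart were found for 11 channel genes (19%, against 10.6% of all rows), and for 20 arrays 1 and 2 shared a sign that array 3 did not (34.5%, against 29.2% of all rows). Of the 58, 45 had a mean between -0.5 and 0.5 (77.6%, against 81.3% of all rows), and for 30 the 95% limma interval lay within 1 log2 unit of 0 (51.7%, against 64.1% of all rows).

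**Figure D1:**
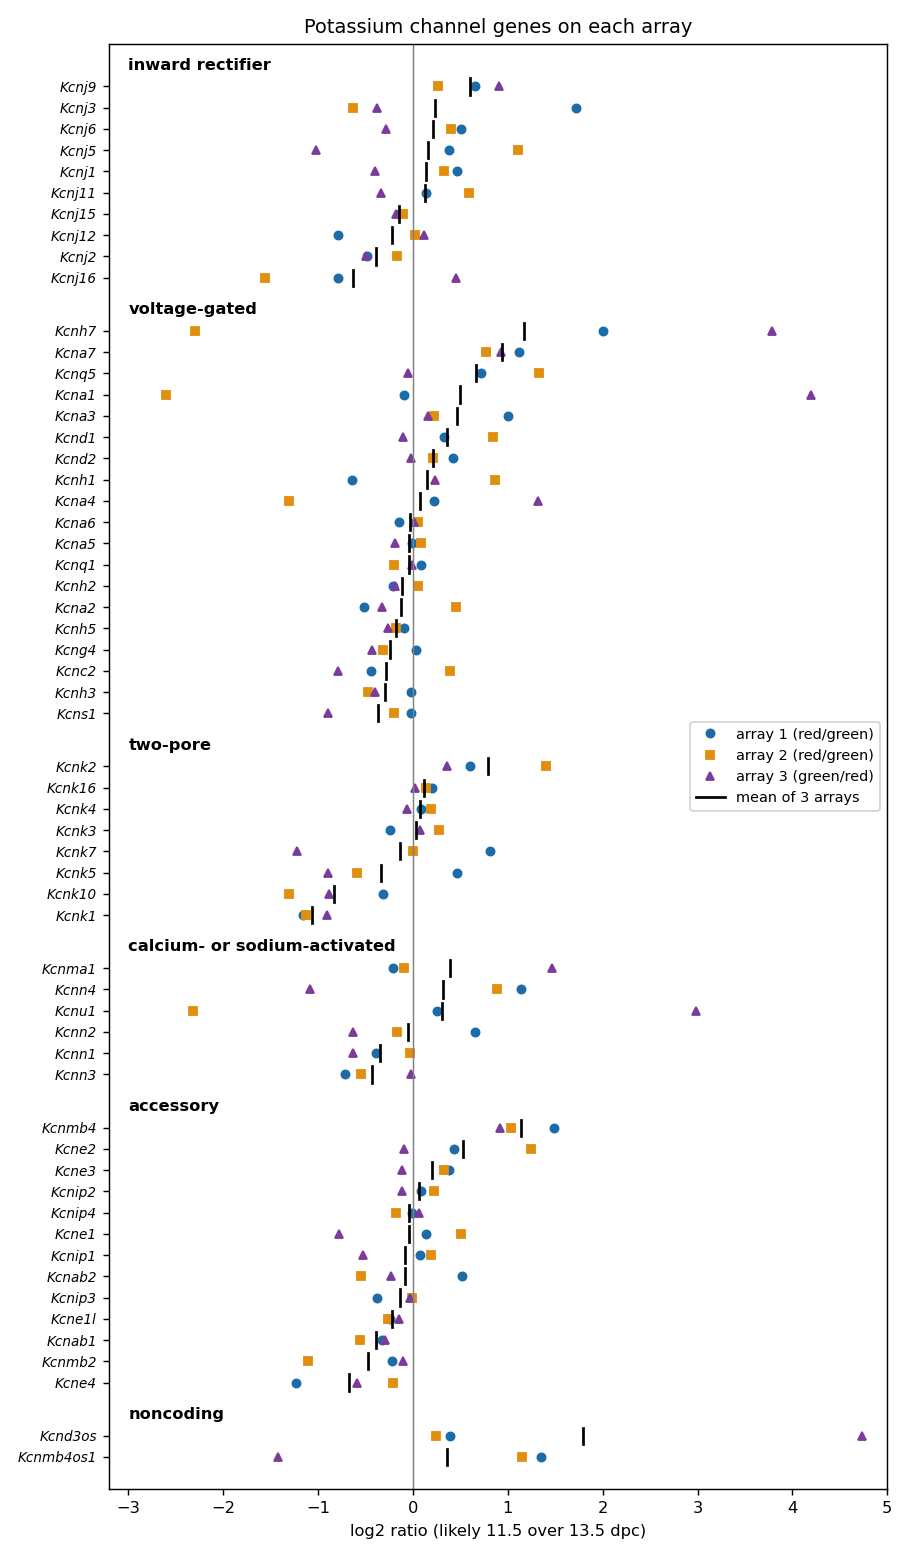
Log2 ratio of each of the 58 potassium channel genes on arrays 1, 2 and 3 (symbols) with the mean of the 3 arrays (black bar), by class and ordered by mean. The arrays lie close together for Kcnk1, Kcna7 and Kcnmb4, and far apart for Kcna1, Kcnh7 and Kcnu1, where array 2 is below -2 and array 3 above 2.

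**Figure D2:**
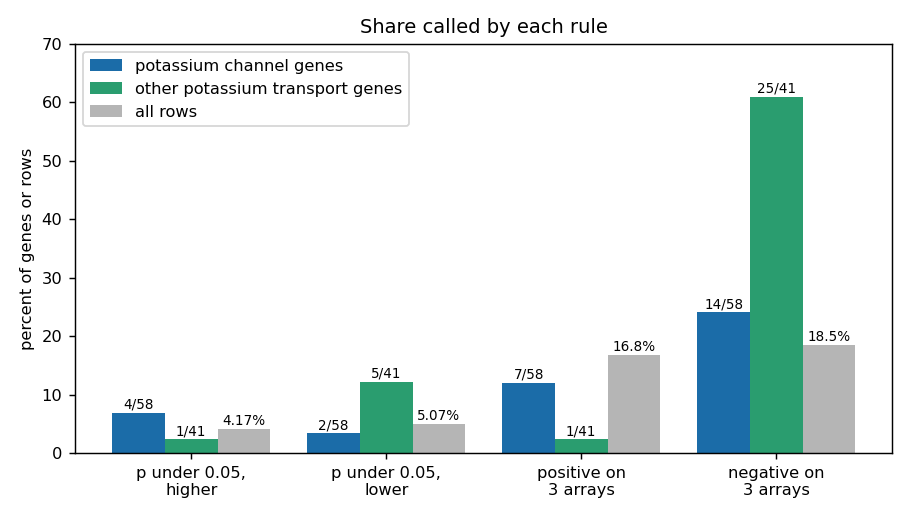
Percent of the 58 potassium channel genes, of 41 other potassium transport genes and of all 19015 rows that met each rule, with the counts above the bars. The channel genes stand near all rows in each rule, while 25 of the 41 other transport genes were negative on all 3 arrays.

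Promoter sequence is shown for those of the 6 genes at an unadjusted p under 0.05 whose 250 bases before the start lie outside the annotated gene, so that their makeup can be set beside the ratios that follow. They are RefSeq sequences of build GRCm38.p6, written 5′ to 3′ toward the gene; 48 of the 58 genes had an entry in this promoter table. Capitals mark matches to 3 promoter motifs, searched on both strands, which do not overlap here. The GC box was searched as GGGCGG. The TATA box was searched as TATAAA. The CCAAT box was searched as the letters of its name. The windows and motifs were chosen after the ratios were seen.
Kcna7, chr7:45405710-45405959 (+ strand): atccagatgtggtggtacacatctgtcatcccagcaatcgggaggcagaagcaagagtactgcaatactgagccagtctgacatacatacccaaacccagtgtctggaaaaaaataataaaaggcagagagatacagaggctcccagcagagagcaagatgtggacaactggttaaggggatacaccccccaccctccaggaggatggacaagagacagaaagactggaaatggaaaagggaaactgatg
Kcnj9, chr1:172329323-172329572 (- strand): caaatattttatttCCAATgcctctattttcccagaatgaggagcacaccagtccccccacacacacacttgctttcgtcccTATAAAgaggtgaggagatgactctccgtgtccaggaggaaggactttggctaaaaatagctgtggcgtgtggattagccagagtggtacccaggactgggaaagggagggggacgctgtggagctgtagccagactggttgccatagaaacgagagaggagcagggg
Kcnk10, chr12:98578214-98578463 (- strand): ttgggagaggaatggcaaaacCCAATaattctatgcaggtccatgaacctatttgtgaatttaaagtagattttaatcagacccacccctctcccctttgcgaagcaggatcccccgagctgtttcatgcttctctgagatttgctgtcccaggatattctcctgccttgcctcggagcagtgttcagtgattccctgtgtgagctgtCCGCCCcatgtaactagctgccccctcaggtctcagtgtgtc
Of 32851 promoter windows of this length, 32.7% held a GC box, 12.4% a TATA box and 33.8% a CCAAT box. Kcna7 and Kcnj9 were both positive on all arrays, but shared no motif: the Kcna7 window held no match, and that of Kcnj9 held 1 TATA box and 1 CCAAT box. The Kcnk10 window held 1 GC box and 1 CCAAT box. G and C made up 48.4% of the Kcna7 window, 52% of that of Kcnj9 and 50% of that of Kcnk10, near the median of 52.4% over all of them. A match is a description of these letters and does not show a bound site.

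Inward rectifiers showed 1 gene at an unadjusted p under 0.05 among 10 (median log2 ratio 0.13). It was Kcnj9 (Entrez gene 16524), a subunit of G protein-gated channels, which had log2 ratios of 0.65, 0.26 and 0.91 on arrays 1, 2 and 3. All 3 arrays were above 0, and the lowest was the second. The mean was 0.61 ± 0.33 (SD, n = 3 arrays), or 1.52-fold. The unadjusted limma p was 0.0353 and the adjusted p 0.534. Without array 1 the limma p was 0.14, and without array 3 it was 0.104. The other G protein-gated subunits had positive means without 1 sign on every array. Kcnj3 had 1.72, -0.63 and -0.38, Kcnj5 had 0.38, 1.11 and -1.03, and Kcnj6 had 0.50, 0.40 and -0.28. In Kcnj5 and Kcnj6 only array 3 was below 0, and in Kcnj3 only array 1 was above it. The 3 features averaged for Kcnj6 had means between -0.096 and 0.66. One of them was positive on all arrays, with 0.91, 0.48 and 0.60, and the others had -0.90 and -0.55 on array 3.

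Kcnj2, a strong inward rectifier, was negative on all arrays, with -0.49, -0.17 and -0.49 (mean -0.39 ± 0.18, SD, n = 3; limma adjusted p = 0.553). Kcnj15 was also negative on all of them, with -0.15, -0.10 and -0.18, and its arrays lay closest together of all 58 genes (SD 0.038). Kcnj16, whose product joins other inward rectifiers in kidney epithelium, had -0.79 and -1.56 on arrays 1 and 2 and 0.46 on array 3, a spread (SD 1.02) larger than its mean of -0.63. Kcnj1, the secretory channel of the thick ascending limb and collecting duct, had 0.47, 0.33 and -0.40, and its 95% limma interval ran from -0.52 to 0.79. The ATP-sensitive pore subunit Kcnj11 had a mean of 0.13 and Kcnj12 one of -0.22, neither with 1 sign. Kcnj10 and Kcnj13 are not analysed here.

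Voltage-gated subunits gave 1 gene of 19 at an unadjusted p under 0.05, with a class median of -0.028. This was Kcna7 (Entrez gene 16495), a delayed rectifier subunit of the shaker family, with log2 ratios of 1.11, 0.77 and 0.93. The arrays lay close together, all above 0.7. Its mean was 0.94 ± 0.17 (SD, n = 3), or 1.92-fold higher at 11.5 dpc, with a limma p of 0.00392 and an adjusted p of 0.382. Of 8 measured striated muscle markers, 2 were positive and 2 negative on all arrays (list median -0.070, means from -2.36 to 0.68), and their part in the Kcna7 ratios was not tested. The other shaker genes had other values. Kcna3, best known from T cells, was positive on all arrays (1.01, 0.22 and 0.16), but array 1 carried most of its mean of 0.46. Kcna2, Kcna4, Kcna5 and Kcna6 had means between -0.13 and 0.079, and Kcna1 is described with the discordant genes.

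Of the ether-a-go-go family, Kcnh5 (mean -0.18) and Kcnh3 (-0.30) were negative on all arrays, while Kcnh2, the cardiac repolarisation channel, had -0.12 and Kcnh1 had 0.15 without 1 sign. The 2 features averaged for Kcnh3 disagreed on array 1, at -0.72 and 0.67, so that its sign there, at -0.025, is that of the average alone. Kcnq1, which pairs with Kcne1 in epithelia and heart, had -0.045 ± 0.14 (SD, n = 3) and a 95% limma interval from -0.47 to 0.38. Its 2 fully measured features had means of -0.16 and 0.069, and a further feature of this gene, without a value on array 1, had 0.42 and 1.33 on arrays 2 and 3. Kcnq5 had 0.72, 1.33 and -0.057 (mean 0.66; limma adjusted p = 0.581), positive on the 2 arrays of 1 dye order and near 0 on the other. The A-type subunits Kcnd1 and Kcnd2 had means of 0.36 and 0.21, and Kcnc2 had -0.28, each with mixed signs. Of the 2 features averaged for Kcnd1, 1 was positive on all arrays, with 0.54, 1.20 and 0.27. The other had 0.11, 0.49 and -0.48. The silent modifiers Kcns1 and Kcng4, which form no channel by themselves, had -0.37 and -0.24; Kcns1 was negative on all arrays, at -0.016, -0.20 and -0.90.

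Two-pore channels held 3 of the 6 genes at an unadjusted p under 0.05, out of 8 measured, in both directions (37.5%, against 9.24% of all rows; class median -0.051). The class is small, and the difference from other rows was not tested. Kcnk1 (Entrez gene 16525), a weakly rectifying background channel, had log2 ratios of -1.16, -1.13 and -0.91. All 3 arrays lay lower at 11.5 dpc and within 0.3 of each other. The mean was -1.07 ± 0.14 (SD, n = 3), or 2.09-fold, with a 95% limma interval from -1.49 to -0.64, a p of 0.00214 and an adjusted p of 0.359. This was the smallest p among the channel genes. Kcnk10 (Entrez gene 72258) and Kcnk2 (Entrez gene 16526) encode related channels opened by membrane stretch and lipids, and lay on opposite sides of 0. Kcnk10 had -0.31, -1.31 and -0.89 (mean -0.84 ± 0.50, SD, n = 3; limma adjusted p = 0.524). Kcnk2 had 0.60, 1.40 and 0.36 (mean 0.79 ± 0.55, SD, n = 3; limma adjusted p = 0.539). Their unadjusted limma p-values were 0.0277 for Kcnk10 and 0.0404 for Kcnk2. Array 2 was the farthest from 0 in both genes; without it their means were -0.60 and 0.48, at limma p-values of 0.109 and 0.137. Kcnk10 also lost its unadjusted call without array 3, at a limma p-value of 0.0862. Kcnk2 also lost it without array 1 and after quantile normalisation, at limma p-values of 0.102 and 0.0565. With a dye term added to the fit, neither Kcnk10 nor Kcnk2 kept its unadjusted call. Whether Kcnk10 and Kcnk2 differ was not tested.

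The acid-sensitive Kcnk3 had -0.24, 0.27 and 0.075, with a 95% limma interval from -0.46 to 0.53. Kcnk16 was positive on all arrays, but at most 0.20, and Kcnk4, the third stretch- and lipid-sensitive channel, had a mean of 0.073. Kcnk5, a channel of the proximal tubule, had 0.46, -0.60 and -0.89, and Kcnk7 had 0.81, 0.0029 and -1.22, so array 1 and array 3 pointed opposite ways in both.

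No subunit of the 6 classed by symbol as calcium- or sodium-activated was at an unadjusted limma p under 0.05. The class held Kcnma1, Kcnn1 to Kcnn4 and Kcnu1, with no sodium-activated Kcnt gene, and what opens each channel was not checked. Kcnn3 and Kcnn1, small-conductance calcium-activated channels, were negative on all arrays, with -0.72, -0.55 and -0.022 for Kcnn3 and -0.39, -0.035 and -0.63 for Kcnn1. Kcnn2 had a mean of -0.050. Kcnn4, the intermediate-conductance channel of red cells and lymphocytes, had 1.13 and 0.89 on arrays 1 and 2 but -1.08 on array 3. Erythroid markers were positive on all arrays for 7 of 9 measured genes (list median 1.17, means from -0.73 to 4.07), and their part in the Kcnn4 ratios was not tested. Kcnma1, the pore of the large-conductance calcium-activated channel, was the average of 2 features that disagreed. One had -0.38, -0.14 and 0.17, and the other had -0.045, -0.042 and 2.76, so that its mean of 0.39 came from 1 feature on array 3.

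Accessory subunits had a median of -0.089 over 13 genes, and 5 were negative on all arrays (38.5%, against 18.5% of all rows). This class is also small, and its difference from other rows was not tested. Of the 5, Kcnip3 was near 0 on arrays 2 and 3, at -0.0145 and -0.031. Kcnmb4 (Entrez gene 58802), the accessory subunit of the large-conductance channel known from neurons, was the only gene of the 13 at an unadjusted limma p under 0.05. It had log2 ratios of 1.48, 1.04 and 0.91, all higher at 11.5 dpc. The mean was 1.14 ± 0.30 (SD, n = 3), or 2.21-fold, with a 95% limma interval from 0.62 to 1.66, a p of 0.00354 and an adjusted p of 0.372. The other subunits of this channel did not share these values. Kcnmb2 had -0.22, -1.10 and -0.11, and Kcnmb1, the smooth muscle subunit, had -2.47 on array 2 and 3.70 on array 3 with no value on array 1. Of 10 measured markers of neurons, glia and neural crest, 2 were positive and 4 negative on all arrays (list median -0.19, means from -1.10 to 0.94), and their part in the Kcnmb4 ratios was not tested.

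Kcne4, whose product inhibits several voltage-gated channels, was the lowest accessory gene, with -1.24, -0.21 and -0.59 (mean -0.68 ± 0.52, SD, n = 3; limma adjusted p = 0.541). Kcnab1, a cytoplasmic beta subunit, had -0.32, -0.56 and -0.30 (mean -0.39 ± 0.15, SD, n = 3; limma adjusted p = 0.548), and Kcnab2 had -0.089 with mixed signs. Kcne1l was negative on all arrays with a mean of -0.22. Kcne1, the partner of Kcnq1, had 0.14, 0.51 and -0.78. Kcne2 and Kcne3 had means of 0.52 and 0.20, both negative only on array 3. The calcium-binding partners of A-type channels, Kcnip1 to Kcnip4, had means between -0.14 and 0.064.

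At 1.5-fold in place of 2-fold, Kcna7, Kcnk1 and Kcnmb4 passed on every array, 3 of 58 against 2.52% of all rows. These 3 genes were at an unadjusted limma p under 0.05 whichever array was left out. The limma p-values ran from 0.0147 to 0.0338 for Kcna7, 0.00554 to 0.0222 for Kcnk1 and 0.0081 to 0.0234 for Kcnmb4. Such runs reuse the arrays by which the 3 genes were picked, and so give no separate support. With the sign of array 3 turned, their means were 0.32 for Kcna7, -0.46 for Kcnk1 and 0.54 for Kcnmb4, and none of them kept its unadjusted call. Kcnj9 was then at 0.0014. The 5 genes at an unadjusted p under 0.05 in that orientation were Kcna1, Kcnj16, Kcnj5, Kcnmb4os1 and Kcnn4, none of the 6 named above. All of those 6 had 1 sign on every array, so turning array 3 gives each of them mixed signs. The lost calls and the lack of overlap largely follow from how the 6 were picked, and are no result about them.

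**Figure D3:**
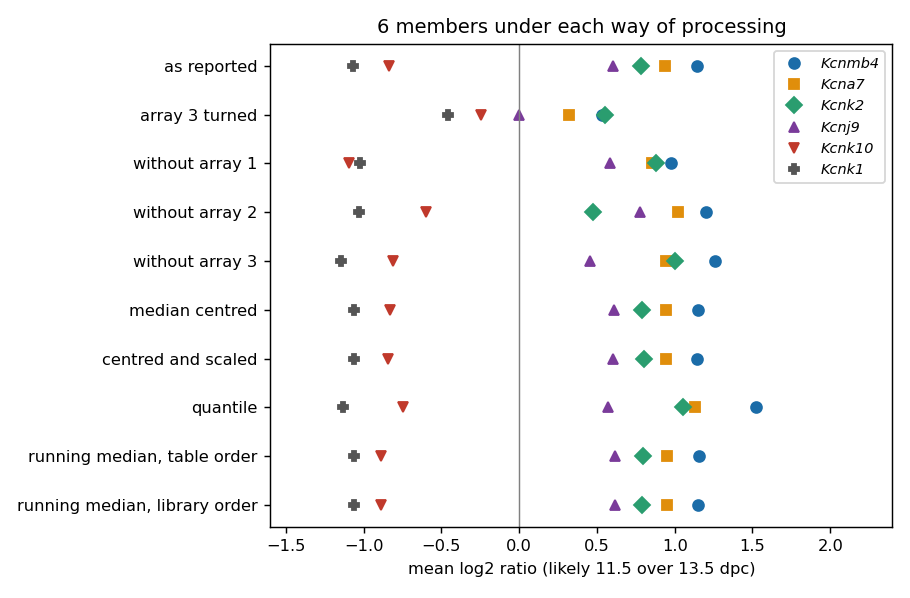
Mean log2 ratio of the 6 genes at an unadjusted limma p under 0.05 (symbols), for the values as reported and under 9 other ways of processing them. Each gene keeps its side of 0 in every setting shown, and with array 3 turned, Kcnj9 lies at 0.0014. Every gene shown had ratios of the same sign on all 3 arrays, so leaving an array out could not move its mean across 0. Array medians over all rows, from -0.091 to 0.064, were too small for median centring to do so. In those settings the kept side is no result about the 6 genes.

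Several channel genes had ratios of opposite sign on arrays 2 and 3. Kcna1, a neuronal delayed rectifier, had -0.10, -2.60 and 4.20. Kcnh7 had 2.01, -2.29 and 3.78, and Kcnu1, known from sperm, had 0.25, -2.31 and 2.98. In all 3 genes array 2 was below -2 and array 3 above 2, so their means of 0.50, 1.17 and 0.31 average ratios of opposite sign. Array 1, of the same dye order as array 2, lay on the side of array 3 for Kcnh7, at 2.01. For Kcnu1 and Kcna1 it was nearer 0, at 0.25 and -0.10. Such a pair of values was found for 3 of 58 channel genes and 0.636% of all rows, and the reverse, above 2 on array 2 and below -2 on array 3, for none of them and 0.0105% of all rows. These bounds were chosen after the values were seen. Kcna4 had the same order of signs at a smaller size, with 0.23, -1.30 and 1.31. Spot intensities were not used here, so whether these spots were dim could not be seen. Across the 58 genes, which share arrays and are not independent replicates, arrays 2 and 3 correlated at -0.447 by Pearson and -0.046 by Spearman, and without these 3 genes the Pearson value was 0.014. Arrays 1 and 2 correlated at 0.189 by Pearson with them and 0.446 without. Over all rows the Pearson values were -0.117 for arrays 2 and 3 and 0.274 for arrays 1 and 2. These 3 genes were set apart by their values on arrays 2 and 3, so the rise without them for that pair follows from leaving them out.

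**Figure D4:**
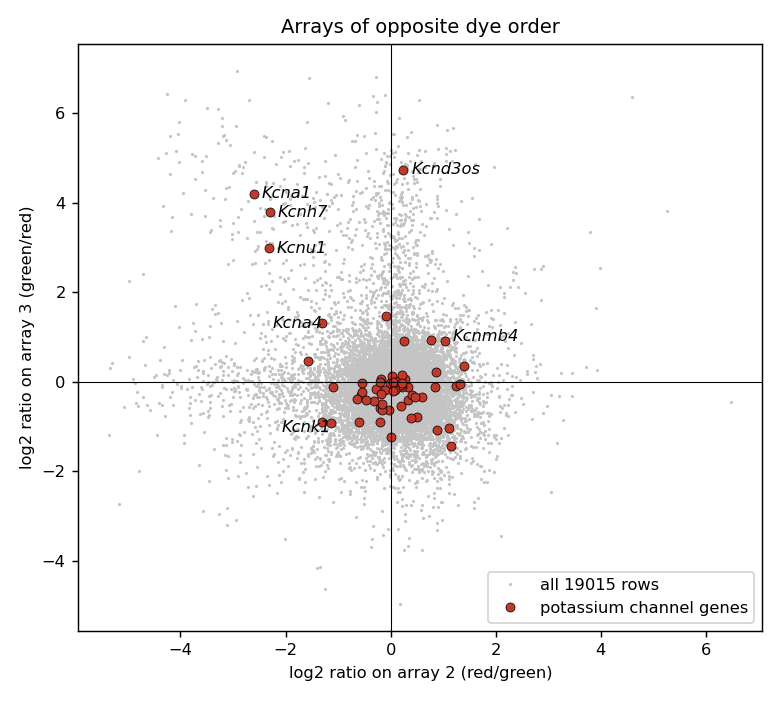
Log2 ratio on array 2 (horizontal) against array 3 (vertical) for all 19015 rows (grey) and the potassium channel genes (red). Kcna1, Kcnh7 and Kcnu1 lie below -2 on array 2 and above 2 on array 3, and Kcnd3os is above 4 on array 3 alone.

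The oligonucleotides of the channel genes also share their place in the library, which the rule did not use. Of the 72 features, 38 lie in a stretch of 48 consecutive gene features by library number. The 4 features of that stretch with array 2 below -2 and array 3 above 2 were Kcna1, Kcnh7, Kcnu1 and Kcnmb1, among 152 such features of 21209 with values on both arrays. Whether library position bears on these values was not tested. With a running median in library order taken off each array, the same 6 genes were at an unadjusted limma p under 0.05, and the median of the 58 moved from -0.034 to 0.046.

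Genes that neighbour each other on a chromosome, with no other protein-coding gene between them in RefSeq, formed 7 pairs, of which 2 had means of 1 sign. These were Kcnj16 with Kcnj2 (-0.63 and -0.39) and Kcnj5 with Kcnj1 (0.16 and 0.13). Kcna5, Kcna1 and Kcna6 stand side by side and had -0.039, 0.50 and -0.028, the middle value being the discordant one.

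Both noncoding transcripts are named for the opposite strand of a channel gene. Kcnmb4os1 had 1.35 and 1.15 on arrays 1 and 2, near the 1.48 and 1.04 of Kcnmb4, but -1.43 on array 3, where Kcnmb4 had 0.91. Kcnd3os had 0.39 and 0.24 on arrays 1 and 2 and 4.74 on array 3, so its mean of 1.79, the highest of the 58, rested on 1 array. Kcnd3 itself had -2.16 and 0.76 on arrays 2 and 3.

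In a wider list of potassium transport genes, most ratios were below 0. The list holds pumps, cotransporters, channel partners and related cyclic nucleotide-gated channels. Of 56 genes listed, 41 were measured, with a median log2 ratio of -0.31. On all 3 arrays 25 were negative (61%, against 18.5% of all rows) and 1 was positive (16.8% of all rows). None passed limma's adjusted p of 0.05 (0% of all rows); at an unadjusted p under 0.05, 5 were lower (5.07% of all rows) and 1 was higher (4.17% of all rows). The list was negative for 31, 29 and 36 genes on arrays 1, 2 and 3, against 49%, 44% and 58.3% of all rows. With array 3 turned, 1 of the 41 was negative on all arrays (10.3% of all rows) and 6 were positive (18.9% of all rows), and the median was -0.059. A gene with 1 sign on all arrays has mixed signs once array 3 is turned. The 25 therefore had to leave the count, and its fall is no result about them. Without array 1, 2 or 3, the other two were both negative for 27, 28 and 26 of the 41, against 26.7%, 31.1% and 28.8% of all rows. These sign counts were added after the values were seen. The difference between this list and the channel genes was not tested.

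Among the sodium pump genes 7 of 11 were negative on all arrays (18.5% of all rows), and 0 with array 3 turned (10.3% of all rows). Those 7 could not stay negative on all arrays after the turn, so only genes of mixed signs could have been counted. Atp1b1, its main epithelial beta subunit, had -0.46, -0.35 and -0.81 (mean -0.54 ± 0.24, SD, n = 3; limma adjusted p = 0.534). Of the Fxyd pump regulators, Fxyd1, Fxyd4, Fxyd5, Fxyd6 and Fxyd7 were negative on all arrays with means between -0.51 and -0.24, and Fxyd2, the pump subunit of kidney tubules, had -1.03, -0.019 and -1.24. Of 15 channel partners and regulators, 12 were negative on all arrays (18.5% of all rows), and 0 with array 3 turned, where the 12 likewise could not be counted. The caveolar protein gene Cav1 had -1.39, -1.04 and -1.65 (mean -1.36 ± 0.31, SD, n = 3; limma adjusted p = 0.359), and Oxsr1, a kinase that controls cotransporters, had a mean of -0.69 (limma adjusted p = 0.474). Endothelium is rich in Cav1, and 6 of 8 endothelial markers were negative on all arrays (list median -0.48, means from -0.83 to 0.063), and their part in the Cav1 ratios was not tested. The anchoring protein gene Akap5 was the 1 higher gene, with 1.15, 0.86 and 0.91 (mean 0.97 ± 0.15, SD, n = 3; limma adjusted p = 0.370).

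Both sulfonylurea subunits, which complete ATP-sensitive channels, were measured. Abcc9, the vascular one, had -1.02, -1.20 and -0.11 (mean -0.78 ± 0.59, SD, n = 3; limma adjusted p = 0.539), and Abcc8 had 1.48, 0.20 and -1.03. The ATP-sensitive pore subunit Kcnj11 had 0.14, 0.59 and -0.34, and which sulfonylurea subunit it pairs with here was not tested. Kcnj8 was left out by the rule. Of the cyclic nucleotide-gated relatives, the pacemaker channel gene Hcn4 had -1.28, -0.22 and -1.27 (mean -0.92 ± 0.61, SD, n = 3; limma adjusted p = 0.533). Of 7 measured smooth muscle and pericyte markers, 3 were positive and 1 negative on all arrays (list median 0.042, means from -0.39 to 1.80), and their part in the Abcc9 ratios was not tested.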

How the data were processed

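The deposited log2 ratios of 3 two-channel Compugen mouse oligonucleotide arrays were used. The authors quantified images with ImaGene 5.5, per the labels, which give 2 accounts of the normalisation (print-tip loess with a step between arrays, and a Lowess curve through 20% of the data with the control channel floored at 10). The sources used here do not give which one made the values. The log2 base was found from the values: 2 to the power of each deposited value between -3 and 2 is a whole multiple of 0.001, within 0.02 of a step, for 100% of them.

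From 22702 features, 883 that were controls or blank were dropped. Symbols came from the platform annotation and were checked by Entrez identifier against GRCm38.p6, which renamed 0. Averaging by symbol turned the 20386 gene features measured on every array into 19015 rows. The mean ratio of each row was set against 0 in limma 3.58.1, run in R 4.3.3 (lmFit, eBayes, two-sided, Benjamini-Hochberg over all rows, 2 residual degrees of freedom). An exact sign-flip test of 3 arrays cannot go below p = 0.25, so none was used. Array 3 would have been turned only if it correlated below 0 with both other arrays; the Pearson values over all rows were 0.116 with array 1 and -0.117 with array 2. Values were given on 20601, 21274 and 21563 gene features of arrays 1, 2 and 3, with standard deviations of 0.56, 0.79 and 0.97; the number of arrays limits the precision.

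Values on each array are given for genes at an unadjusted p under 0.05, the 5 highest and 5 lowest with 1 sign on all arrays, the highest and lowest of each class, and 13 kidney-related genes named in any case (11 measured). Other genes given array by array were chosen after their values were seen. The members, lists and tests were chosen with earlier results of these data known.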

Additional observations from a re-analysis of the deposited data

How the results depend on the processing

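No channel gene passed limma's adjusted threshold under any alternative run (0 in each). The count at an unadjusted limma p under 0.05 was 6 and ran from 4 to 9 (4 without array 1, 6 without array 2, 9 without array 3, 5 with array 3 turned, 7 with a dye term, where all rows gave 14%), and all rows gave 3.87%, 5.36%, 12.3% and 6.58% in the first 4 of these. One sign on all arrays held for 28 to 41 genes when 1 array was left out (54.9% of all rows for 28 and 64.5% for 41), when only 2 arrays were asked for 1 sign. At least 2-fold on every array was met by 0 genes (0.684% of all rows), by 1 with array 3 turned and by 0 to 3 without 1 array. At 1.5-fold it was met by 3 (2.52% of all rows). No share of all rows is given for array 3 turned or for the runs without 1 array. Those 2-fold counts are therefore no result about the channel genes. The median of the channel genes was -0.034 and became 0.066 with array 3 turned, 0.035 after a running median in table order and 0.046 in library order, each within the spread of the arrays' own medians. The other transport genes at an unadjusted p under 0.05 numbered 6, 2 to 5 without 1 array and 1 with array 3 turned. The cause of these moves was not tested. Of 16 other channel genes named by the rule, 5 of 144 values moved by more than the spread between arrays, all with array 3 turned (among them Kcnd3os at -1.37, Kcnma1 at -0.59 and Kcns1 at 0.23, each with its sign changed). The 6 genes at an unadjusted p under 0.05 are not in that count. Turning array 3 moves each mean by an amount set by its value on that array alone. Where the arrays agree the SD is small, so a move beyond the SD can follow from the turn itself. With array 3 turned, most of these 6 genes moved by more than their SD. They were Kcna7 (0.94 to 0.32, SD 0.17), Kcnk1 (-1.07 to -0.46, SD 0.14) and Kcnmb4 (1.14 to 0.54, SD 0.30). Kcnj9 (0.61 to 0.0014, SD 0.33) and Kcnk10 (-0.84 to -0.24, SD 0.50) did so too, and Kcnk2 (0.79 to 0.55, SD 0.55) did not. After quantile normalisation Kcna7 (1.13) and Kcnmb4 (1.52) also did. Running medians in library order and counts without the noncoding transcripts were added after the data were seen. Signal over background was not available as a measure here, so dim spots were not set apart.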
